A study of Brassica rapa subsp. chinensis with 6 samples.

Results

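Genes for the perception of light, the response to shade and the circadian clock were examined in pakchoi (Brassica rapa subsp. chinensis), a leafy cabbage, in the wild type strain 564 and in 564Y, a mutant with chlorosis, the yellowing of leaves low in chlorophyll. The authors' table lists 2958 genes that they had called as different between the strains. Of these, 15 were chosen because the text of their sequence match names a phytochrome, a far-red or phototropism protein, HFR1 or a pseudo-response regulator. The other words searched for (cryptochrome, light-responsive, constans, gigantea, circadian and early flowering) each matched 0 texts of the table. A further 1109 genes of the table had a match named only as hypothetical, unknown or the like, and 48 had no match, so called genes of these families can have been missed.

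RNA was taken at the trifoliate stage from everything above the ground, with 3 libraries per strain, 564_1 to 564_3 and 564Y_1 to 564Y_3. No treatment is given in the labels for either strain, and the light regime, the time of day at harvest and the mutated gene are not stated in the sources used here. The labels' protocol mentions 4 time points although only 1 stage is labelled, which bears on the clock genes and could not be settled here. The labels call the 3 libraries independent biological replicates, which is the only ground for treating their spread as biological. The table holds called genes only, and its mean reads per library sum to 1348884 for the wild type and 1677855 for 564Y, which are not library depths. Normalised reads below are reads divided by a size factor per library, and a fold is the ratio of the authors' group means of these, their base means.

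Plants read the colour and direction of light through several photoreceptors. Phytochromes are interconverted between an active and an inactive form by red and far-red light. Phototropins respond to blue light and pass the signal through some proteins of the NPH3 family. Far-red-rich light under a canopy sets off shade avoidance, in which stems and petioles lengthen. In Arabidopsis, HFR1 is a helix-loop-helix protein that restrains shade avoidance and takes part in seedling responses to far-red light. Pseudo-response regulators form part of the circadian clock, in which they are produced in turn over the day and repress other clock genes.

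Most of the 15 genes were higher in the mutant. In the authors' deposited table, 13 members (86.7%) were higher and 2 were lower, where 59.7% of all genes of the table were higher and 40.3% lower. The genes that rose were phytochrome A, both PKS1 genes, both HFR1 genes, 4 of the 6 NPH3-type genes and all 4 pseudo-response regulators. The 2 genes that fell were a pair of NPH3 family genes with the same sequence match. The median log2 ratio of the higher members was 1.54, against 1.70 for the 1681 higher genes of the table with reads in both strains. Over all 15 members it was also 1.54, against 1.15 for the 2810 genes with reads in both. Medians over both directions depend on the share of higher genes, so they do not show a larger change in the members. The members' log2 ratios ran from -1.77 to 4.12, and all 15 had reads in both strains. At a log2 ratio of at least 2, 4 members were higher, where 24.6% of the table was, and 0 were lower, where 13.3% was. In bulk tissue, fewer cells of a type and less RNA per cell cannot be told apart.

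**Figure D1:**
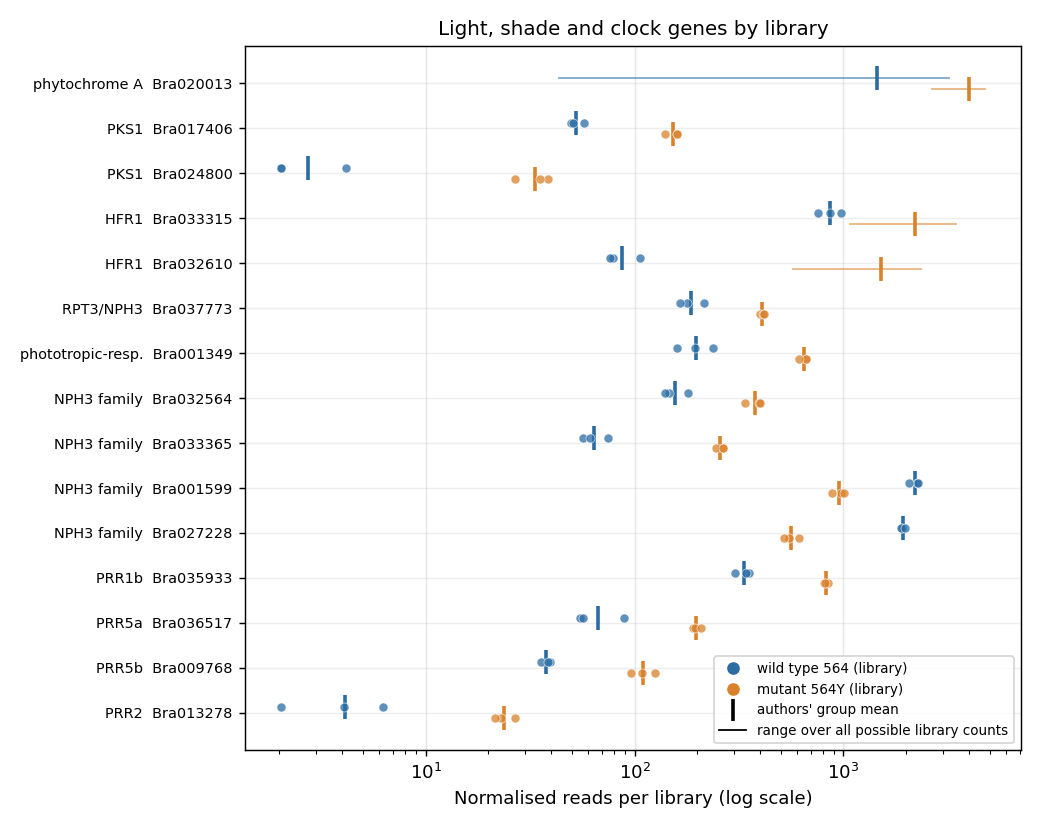
Normalised reads of the 15 genes on a log axis, with 1 point per library (blue for wild type 564, orange for mutant 564Y), a tick for the authors' group mean and a thin line for the range of all library counts that fit a group mean where more than 1 set does. The 2 lower genes, Bra001599 and Bra027228, are the ones whose blue points lie to the right of the orange points.

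Reads per library could be worked out from the group means for 12 of the 15 genes, and the libraries of each strain are lettered A to C by falling size factor, with no tie to the replicate numbers. In all 12 genes the ranges of the strains' libraries were separate, but the same held for 100% of the 2518 genes recovered, because the table was selected for the difference. All 12 also passed an adjusted p of 0.05 in edgeR's quasi-likelihood test, as did 100% of the recovered genes (99.8% at the authors' limits). The p-values below reflect the size of the change, the counts and the spread together. They are no separate evidence for the 12 genes. Their adjusted p-values in that test ran from 4.05e-13 to 4.79e-05.

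Phytochrome A is the photoreceptor for far-red and very weak light, and its protein is unstable once light has converted it. The gene named phytochrome A (Bra020013), the longest member with a coding length of 3633 bases, rose 2.74-fold. Its authors' means were 1449 normalised reads for 564 and 3971 for 564Y, and its log2 ratio was 1.45 with an adjusted p of 6.02e-26 in the authors' deposited table. Its 4250 wild type reads and 12318 mutant reads could be split over the libraries in 33 and 9 ways, so no value per library is given. Over all these ways, a wild type library could reach at most 3215 normalised reads and a mutant library was at least 2646, so an overlap of single libraries is possible on these values.

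Phytochrome kinase substrate 1, PKS1, is a protein that binds phytochromes and in Arabidopsis also acts with phototropins in bending towards light. Both genes with this name rose, by different amounts. Bra017406 had 49.6, 50.9 and 57.2 normalised reads in wild type libraries A, B and C, and 160.4, 139.5 and 160.2 in the mutant libraries. All mutant libraries lay above all wild type libraries, and the edgeR log2 change was 1.54 (SE 0.18, adjusted p = 1.14e-07). Bra024800 was close to the limit of detection in the wild type, with 2, 2 and 4 reads, or 2.02, 2.04 and 4.16 normalised reads. In the mutant it had 40, 28 and 36 reads, or 38.4, 26.9 and 35.2 normalised reads. The lowest mutant library was 6.47 times the highest wild type library, and the log2 change of 3.56 (SE 0.48, edgeR adjusted p = 7.29e-07) is the less precise for resting on 8 wild type reads.

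Both HFR1 genes rose, and 1 of them, Bra032610, had the largest log2 ratio among the members. It had 78.9, 106.8 and 76.0 normalised reads in wild type libraries A, B and C, a mean of 87.2 ± 17.0 (SD, n = 3). In the mutant the authors' mean was 1513, which is 17.3-fold higher, with a log2 ratio of 4.12 and an adjusted p of 6.01e-213 in the authors' deposited table. This was rank 19 of the 2958 p-values in the table and rank 116 of 1681 by the size of the ratio among higher genes. The mutant reads could be split over the libraries in 7 ways, and in each of them every mutant library had at least 576.3 normalised reads, 5.39 times the highest wild type library.

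The other HFR1 gene, Bra033315, was the more abundant of the pair in both strains and rose less. Its wild type libraries A, B and C had 858.2, 972.6 and 754.4 normalised reads, a mean of 861.7 ± 109 (SD, n = 3). The authors' mean in the mutant was 2207, 2.56-fold higher, with a log2 ratio of 1.36 and an adjusted p of 1.03e-42 in the authors' deposited table. All 8 ways to split its mutant reads gave at least 1072 normalised reads in each library, above the 972.6 of the highest wild type library.

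**Figure D2:**
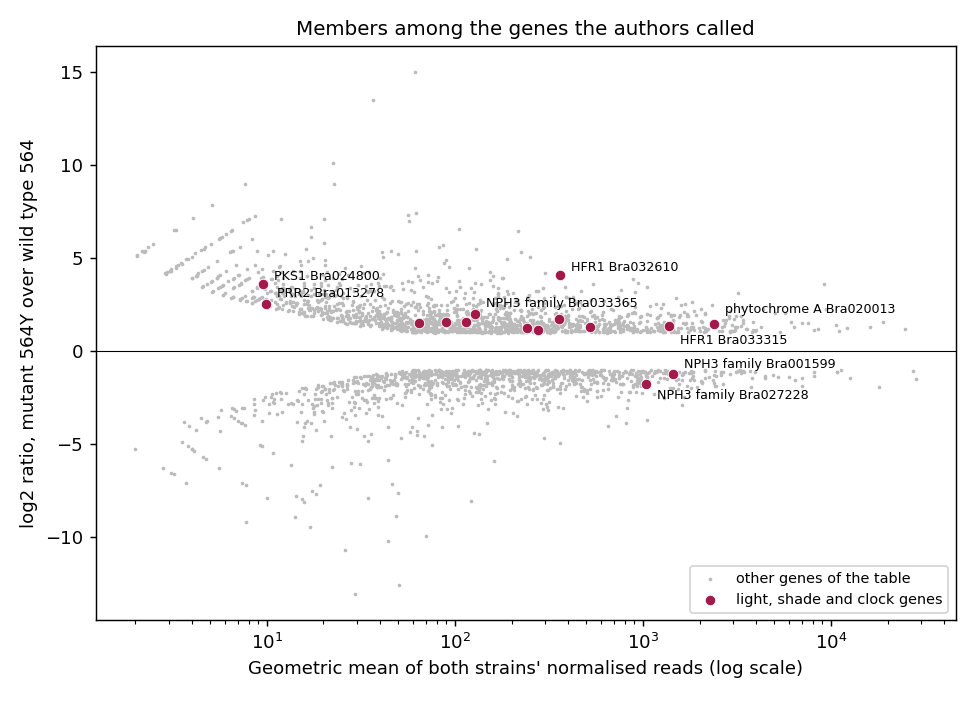
The log2 ratio of mutant to wild type against the geometric mean of both strains' normalised reads (log axis) for the 2810 genes with reads in both strains, with the 15 members in red. HFR1 Bra032610 stands at 4.12, while most higher members lie close to the edge of the band at a log2 ratio of 1, below which the authors called no gene.

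Proteins of the NPH3 family, named after a protein that phototropin signalling needs for bending in Arabidopsis, were the largest group, with 6 members that moved in both directions. Root phototropism protein 3 (Bra037773), which carries NPH3 as its other name, had 179.1, 214.7 and 164.4 normalised reads in the wild type libraries A, B and C and 397.7, 409.9 and 418.1 in the mutant libraries. The groups did not overlap, and the log2 change of 1.13 (SE 0.13, edgeR adjusted p = 1.44e-07) was the smallest in size among all members. With TMM scaling over the recovered genes its log2 change was 0.73, below the authors' limit of 1, and its call at that limit ended. The putative phototropic-responsive gene Bra001349, another relative, had 159.9, 195.3 and 237.2 in 564 and 658.9, 664.8 and 614.4 in 564Y. Its wild type libraries spread more than its mutant libraries, with a coefficient of variation of 19.6% against 4.26%, and its log2 change was 1.71 (SE 0.13, edgeR adjusted p = 4.1e-10).

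Bra032564 and Bra033365 share 1 Arabidopsis match, named phototropic-responsive NPH3 family protein, and both rose. Bra032564 had 146.8, 181.1 and 139.4 normalised reads in wild type libraries A, B and C and 392.9, 397.4 and 338.0 in the mutant libraries. Bra033365 was the scarcer copy, with 56.7, 61.0 and 74.9 in 564 and 264.2, 244.4 and 263.8 in 564Y. Neither copy overlapped between strains, and the rise was 2.42-fold for Bra032564 and 4.01-fold for Bra033365, with edgeR adjusted p-values of 7.81e-08 and 8.89e-10 and an SE of 0.14 and 0.17 on the log2 scale. With TMM scaling the log2 change of Bra032564 was 0.87, below the limit of 1.

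Bra001599 and Bra027228, which share another NPH3 family match, were the members that fell. Bra001599 had 2238, 2270 and 2068 normalised reads in the wild type libraries A, B and C and 972.1, 1003 and 879.2 in the mutant libraries. Bra027228 had 1912, 1879 and 1962 in 564 and 551.4, 611.9 and 519.7 in 564Y. In both genes every mutant library lay below every wild type library by a factor of at least 2.06, and the log2 changes were -1.20 (SE 0.08) and -1.77 (SE 0.09) in edgeR, with adjusted p-values of 5.5e-11 and 4.05e-13. Per length, these were the most abundant members in the wild type, at 1869 normalised reads per kilobase of coding length for Bra027228 and 1657 for Bra001599, ahead of HFR1 Bra033315 at 1222 and phytochrome A at 398.9. In the mutant the order on the same scale was HFR1 Bra033315 at 3130, HFR1 Bra032610 at 1834, phytochrome A at 1093, Bra001599 at 719.0 and Bra027228 at 546.8. The 4 NPH3-type genes that rose lay lower per length, between 33.9 and 112.7 in 564 and between 136.0 and 368.8 in 564Y.

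All 4 pseudo-response regulators of the table were higher in the mutant. Pseudo-response regulator 1, known in Arabidopsis as TOC1, is an evening component of the clock that represses its morning genes. The gene named pseudo-response regulator 1b (Bra035933) had 354.2, 304.2 and 343.4 normalised reads in wild type libraries A, B and C and 809.7, 842.8 and 817.6 in the mutant libraries. The mutant libraries lay within a narrow range above the wild type, at 823.4 ± 17.3 (SD, n = 3) against 333.9 ± 26.3, and the log2 change was 1.30 (SE 0.10, edgeR adjusted p = 5.28e-10). It was 0.90, below the limit of 1, with TMM scaling.

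Pseudo-response regulator 5 acts earlier in the day in Arabidopsis and also represses morning clock genes. The copy named 5a (Bra036517) had 54.7, 57.0 and 89.5 normalised reads in the wild type libraries A, B and C and 190.2, 194.3 and 208.1 in the mutant libraries. Wild type library C was the highest of its group, and the log2 change was 1.56 (SE 0.19, edgeR adjusted p = 2.05e-07). The copy named 5b (Bra009768) had 39.5, 35.6 and 38.5 in 564 and 124.9, 108.7 and 95.7 in 564Y. Here the wild type libraries lay close together, and the log2 change was 1.53 (SE 0.20, edgeR adjusted p = 6.71e-07).

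Pseudo-response regulator 2 (Bra013278) belongs to a branch of the family that is not counted among the core clock genes and has been linked to pigmentation in tomato and pepper fruit. It had 2, 4 and 6 reads in wild type libraries A, B and C and 28, 24 and 22 in the mutant libraries, or 2.02, 4.07 and 6.24 against 26.9, 23.1 and 21.5 normalised reads. The lowest mutant library was 3.44 times the highest wild type library, and the log2 change was 2.51 (SE 0.48, edgeR adjusted p = 4.79e-05). It was the member with the weakest call in the authors' deposited table, at an adjusted p of 0.000247.

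Since the members include 5 pairs of copies, the share of each copy in the reads of its pair was compared between strains, a measure that needs no scaling between libraries. Brassica rapa carries several copies of many genes, and how reads shared by near-identical copies were counted is not stated in the sources used here, so the split between copies is uncertain. The scarcer PKS1 copy, Bra024800, took 3.92%, 3.85% and 6.78% of the pair's reads in wild type libraries A, B and C and 19.3%, 16.2% and 18.0% in the mutant libraries. Bra033365 took 27.9%, 25.2% and 34.9% of its NPH3 pair in 564 and 40.2%, 38.1% and 43.8% in 564Y. Bra027228 went the other way, from 46.1%, 45.3% and 48.7% of its NPH3 pair to 36.2%, 37.9% and 37.2%. In these 3 pairs the strains did not overlap, and each had p = 0.10 in a two-sided exact permutation test, which is the smallest p that 3 libraries against 3 can give. Adjusted over the 4 pairs tested, by the Benjamini-Hochberg method, the exact p was 0.133 for each of the 3. The shifts in share restate the unequal folds of the copies given above, so they are no separate result. Pairs of other called genes were not compared.

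The pseudo-response regulator 5 pair showed no such shift. Copy 5b took 41.9%, 38.5% and 30.1% of the pair's reads in the wild type libraries A, B and C and 39.6%, 35.9% and 31.5% in the mutant libraries. The groups overlapped (two-sided exact permutation test, p = 0.80, adjusted p = 0.80). For HFR1 no test was made, because the mutant reads have several splits. Bra032610 took 8.42%, 9.90% and 9.15% of the HFR1 reads in the wild type libraries A, B and C, and 40.7% of the mutant reads summed over libraries. In every split its share in a mutant library was at least 14.3%, above each wild type library.

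**Figure D3:**
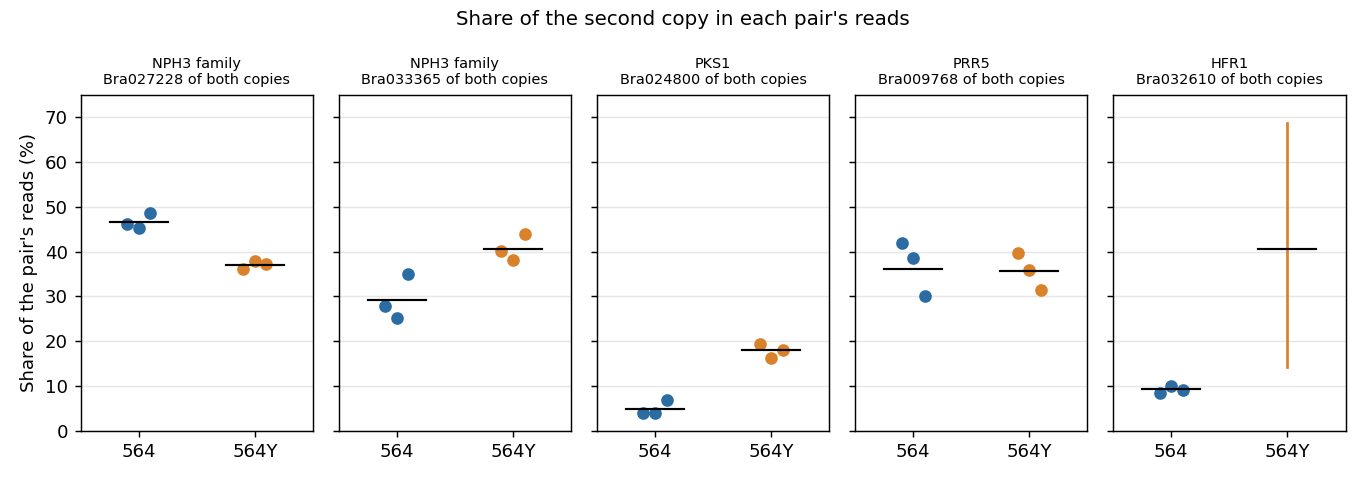
Share (%) of the named copy in the reads of its pair, with 1 point per library (blue for 564, orange for 564Y) and a black line for the share in the summed reads. The vertical line for HFR1 in the mutant spans 14.3% to 68.6%, the values allowed by all splits of the reads, and the PRR5 pair is the one in which the strains overlap.

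Other genes of light signalling, shade, the clock and day-length flowering were looked up in 5 lists, of 46 symbols for photoreceptors and their partners, 45 for light signalling, 23 for shade avoidance, 39 for the clock and 36 for day-length flowering, with some product names besides. These matched 13 further genes of the table, 11 higher and 2 lower, again beside 59.7% higher in the whole table. The list of photoreceptors added only FAR1 (Bra020195), which is a fatty acid reductase matched by its symbol, so 12 genes are left, 10 higher and 2 lower. The higher ones still include GR-RBP6 (Bra025674), a doubtful match to the clock list. The largest change was in XTR7 (Bra038442), the only match to the shade avoidance list and a xyloglucan endotransglycosylase of the cell wall that is a marker of shade avoidance in Arabidopsis, with authors' means of 233.9 and 3382 normalised reads, 14.5-fold higher. The log2 ratio of XTR7 was 3.85 with an adjusted p of 2.09e-272 in the authors' deposited table.

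Among light signalling factors, HYH (Bra021258), a bZIP relative of the factor HY5 that promotes seedling responses to light, rose from 192.2 ± 25.5 to 468.8 ± 26.5 normalised reads (SD, n = 3). The GATA factor CGA1 (Bra026461), which promotes chloroplast development, rose 2.18-fold, with authors' means of 580.2 and 1263. Genes named B-box zinc finger, a family that includes regulators of light signalling, went both ways. Bra033925 fell from 1325 ± 82.0 to 319.4 ± 36.3 and Bra004035 fell from 844.9 ± 58.7 to 251.2 ± 9.97, while Bra023857 rose from 161.5 ± 23.4 to 407.1 ± 63.5 (SD, n = 3 in each case). The fourth B-box gene, Bra001815, rose 2.35-fold, with authors' means of 562.7 and 1321.

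In the clock list, both genes named EPR1, the symbol of a MYB-related factor of clock output in Arabidopsis, rose. This match rests on the symbol, and the identity of the 2 genes was not checked further. Bra025914 went from 226.3 ± 22.2 to 464.2 ± 55.5 normalised reads and Bra024430 from 44.0 ± 10.9 to 159.4 ± 24.5 (SD, n = 3 in each case). The third match, the glycine-rich RNA-binding protein GR-RBP6 (Bra025674), rose 2.24-fold. Its match to the list is doubtful, so it is not read as a clock gene. No text of the table named CCA1, LHY, the ELF genes, LUX or GI, so these were either not called or not matched. In the list of day-length flowering, SMZ (Bra007123), a repressor of flowering in Arabidopsis, rose from 71.6 ± 3.81 to 154.6 ± 9.64, and AGL20 (Bra000393), a promoter of flowering also called SOC1, rose from 44.0 ± 7.57 to 107.2 ± 12.2 (SD, n = 3 in each case).

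**Figure D4:**
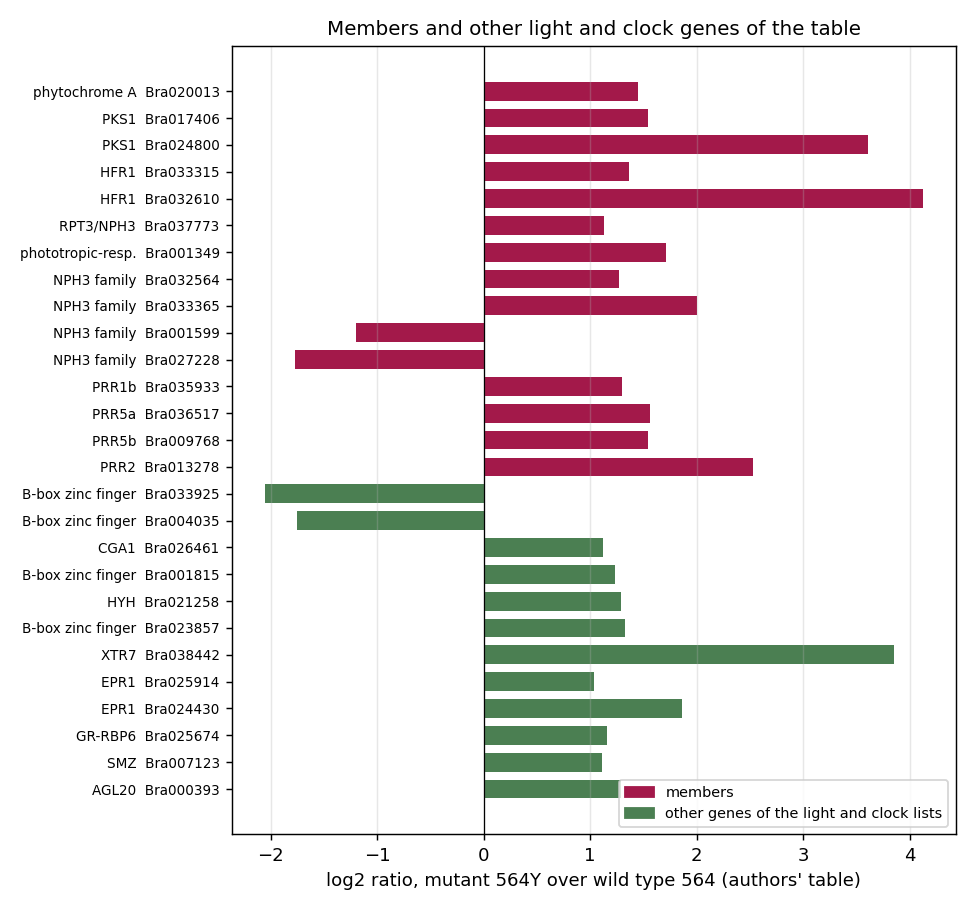
Log2 ratio of mutant to wild type in the authors' table for the 15 members (red) and the 12 other genes of the light and clock lists (green). Among the green bars, GR-RBP6 is a doubtful match to the clock list. The bars to the left of 0 are the NPH3 genes Bra001599 and Bra027228 and the B-box genes Bra033925 and Bra004035, and HFR1 Bra032610 (4.12) and XTR7 (3.85) have the longest bars.

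The make-up of the samples could be checked only through called genes. Of 14 root markers, 3 were in the table, and they went both ways. PERK13 (Bra016218) fell from a mean of 23.9 normalised reads in the wild type to 0 in the mutant. RHD2 (Bra029194) rose from 7.83 to 56.7, and MLP34 (Bra003939) rose from 0.35 to 31.3, on 1 wild type read. The summed level of all 3 ran from 30.5 to 34.4 in the wild type libraries and from 81.7 to 91.4 in the mutant libraries. Of 12 flower markers, the MADS-box genes AGL8 and AGL9 were in the table. Their summed level ran from 0 to 2.02 in the wild type and from 38.4 to 41.4 in the mutant, with AGL8 (Bra012997) at 0 reads in the wild type, while SEP2, the third match, is stress enhanced protein 2 and no floral gene. Of 16 leaf markers, photosystem I subunit G (Bra038011) was in the table, with authors' means of 1589 and 602.6. Its call was weak, at an adjusted p of 0.000837 in the authors' deposited table, where the highest was 0.000999. No values per library could be given for it. The other match, CES101, is a receptor kinase. These markers differed between the same strains as the light and clock genes, and their part in the differences was not tested.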

How the data were processed

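The authors' deposited table gives, for each called gene, the mean read count per strain (a signal, the mean of 3 libraries), the base mean (mean of reads divided by a size factor per library), the log2 ratio of mutant to wild type, and a p-value with its adjusted value, per the file headers. The submitters' processing notes name Bowtie2 2.2.3, TopHat2 2.0.12 and DESeq 1.10.1, with no role. The counter, the build and the annotation are not stated in the sources used here. Every gene had an adjusted p-value of at most 0.000999 and a log2 ratio of 1 or more in size, so there is no background of unchanged genes. All 2958 lengths are multiples of 3 and are coding lengths.

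Group reads (mean times 3) were whole, within 0.001 reads, for 100% of values. Genes with 1 read in a strain gave starting values of the size factors. The size factors were then refined in rounds by weighted least squares over the genes with 1 fitting set of library counts. With the refined size factors, exactly 1 set of library counts fitted 2518 genes (85.1%) in both strains. The 440 others are not in the tests on counts. Library pairs of a strain differed beyond counting noise (chi-square per gene 2.63 to 4.01). These counts went into edgeR 4.0.16 (quasi-likelihood, the authors' size factors, Benjamini-Hochberg adjustment over all recovered genes; SE as the log2 change over the root of F). At the authors' limits edgeR called 2514 of the 2518. The recovery and the fit were tested on simulated data. DESeq2 1.42.0, TMM scaling, a count filter and left-out libraries were alternatives.

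The design written for counts per library was kept, but the deposited unit is a group mean, so the authors' calls are the main result. Every member is named, and of the other lists every match was to be named up to 15 per list. The members and lists were chosen with earlier results of these data known. The reference gene table holds 0 of the members' identifiers, and no coordinates or sequences are given.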

Additional observations from a re-analysis of the deposited data

How the results depend on the processing

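No paired analysis was possible because no replicate number goes with the recovered libraries. Pseudocounts were not run, since the recovered values are counts. At a log2 ratio of 2 or more in size, 4 members were higher and 0 lower, in place of 13 and 2, and Bra033365 lies on that limit. An adjusted p of the authors under 1e-6 left 12 higher and 2 lower members, without pseudo-response regulator 2, where 43% of the table was higher and 30.1% lower. The rule for members gave the same genes without early flowering and light-responsive, which matched no text. On recovered counts at the authors' limits, an alternative chosen after seeing the data, edgeR called 10 higher and 2 lower members, the rest being unresolved. TMM, computed on selected genes only, shifted their median log2 by -0.40 and left 7 higher and 2 lower members past the limits, without Bra037773, Bra032564 and Bra035933. Over the 2518 recovered genes it left 39.1% higher and 43% lower, in place of 56.9% and 43%, so the share of higher genes set beside the members depends on the scaling. DESeq2, a mean of at least 10 reads and each left-out library gave 10 and 2. Of 108 recomputed log2 changes of members, 0 changed direction and 0 lost an adjusted p of 0.05, which is of little weight in genes selected for the difference. Low wild type counts limit Bra024800 and Bra013278, where leaving out 1 library moved the log2 change by up to 0.41.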

Other observations

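A further family with light in its name was seen in the table and was picked after its values were known, so its direction is a description without a test. LSH genes, named after LIGHT-DEPENDENT SHORT HYPOCOTYLS 1 of Arabidopsis, had 5 members in the table and all 5 were higher in the mutant, beside 59.7% of the whole table. A pair of genes named LSH1 rose, Bra036134 from 207.0 ± 30.4 to 751.0 ± 67.6 normalised reads and Bra020610 from 56.1 ± 20.8 to 151.2 ± 27.1 (SD, n = 3 in each case). LSH3 (Bra021707) rose from 69.6 ± 3.04 to 152.1 ± 5.16, and the scarcer LSH2 (Bra040137) rose from 7.88 ± 4.02 to 36.4 ± 1.46 (SD, n = 3 in each case). LSH9 (Bra012584) had 13.2, 18.3 and 13.5 normalised reads in wild type libraries A, B and C and 53.8, 52.9 and 40.1 in the mutant libraries. Summed over the 5 genes, the wild type libraries lay between 313.3 and 408.9 normalised reads and the mutant libraries between 1059 and 1233.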
